A study of Mus musculus with 6 samples.

Results

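Natural killer (NK) cell-like cells without CD3 made up 1098 of the 24307 cells with at least 500 detected genes, among 25636 cells in the deposited tables. A cell was a member if it held at least 2 unique molecular identifiers (UMIs, each counting 1 captured RNA molecule) of Ncr1 and Klrb1c together and 0 of Cd3d, Cd3e and Cd3g. Ncr1 encodes the NK receptor NKp46, Klrb1c encodes the NK receptor NK1.1, and the CD3 genes encode the signalling chains of the T cell receptor. Members also held at most 1 UMI of Siglech, a plasmacytoid dendritic cell gene, and at most 2 UMIs of Ms4a2, Fcer1a, Cd200r3 and Cyp11a1 together, genes of basophils and mast cells. The members were thus chosen by these measured counts, so none of these genes is a result. There were 232, 159 and 134 members in the Stag2 KO mice KO1 to KO3 and 116, 194 and 263 in the Stag2 wt mice WT1 to WT3, and values per mouse are given in this order throughout.

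The samples were lineage-negative (Lin-) haematopoietic stem and progenitor cells, per the labels, from 3 Stag2 KO and 3 Stag2 wt mice, profiled by droplet single-cell sequencing of RNA 3' ends. Stag2 is 1 of the subunits of cohesin, the ring that forms chromatin loops, and the study asked how its loss alters blood cell fate. The labels give no allele, Cre driver, strain, age, sex, tissue or lineage antibodies, so no more can be said of what the knockout removes, in which cells, or of what the genotypes share. Each sample is 1 mouse, and cells of a mouse are not replicates.

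NK cells are innate lymphocytes that kill infected or transformed cells by releasing granzymes and perforin from cytotoxic granules. They weigh signals from activating and inhibitory receptors, and in mice the inhibitory Ly49 receptors (Klra genes) read major histocompatibility complex (MHC) class I on other cells. NK cells arise in bone marrow, and as they mature they gain Ly49 receptors, cytotoxic granules and the chemokine gene Ccl5. Type 1 innate lymphoid cells (ILC1) are close relatives that share Ncr1 and Klrb1c with them.

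The label was checked against markers that the gate did not use. Levels are UMI counts summed over the members of a mouse and scaled to the library total in counts per 1000000 UMIs (CPM). Gzma, the granzyme A of cytotoxic granules, stood at 2034 to 4262 CPM in members of the 6 mice, against at most 375 CPM in CD3 positive cells. CD3 positive cells here are the 1320 cells with at least 2 CD3 UMIs, no Ncr1 or Klrb1c UMI and the same other limits. Gzma averaged 4.44 CPM in cells with neither marker. Eomes, a transcription factor that sets NK cells apart from ILC1, averaged 147 CPM in members, 26.4 CPM in CD3 positive cells and 0.321 CPM in the cells with neither marker. Trac, the constant region of the T cell receptor alpha chain, averaged 9.33 CPM in members and 436 CPM in CD3 positive cells. Trbc1, the beta chain constant region, was at 518 CPM in members and 749.6 CPM in CD3 positive cells. NK cells can transcribe unrearranged T cell receptor constant regions, and the members without any UMI of these genes numbered 38, 28 and 20 in the Stag2 KO mice and 12, 28 and 49 in the Stag2 wt mice, so most members held some. Against CD3 positive cells the granule gene, Eomes and Trac matched the label, and Trbc1 did not set members apart. The 69 cells with at least 2 UMIs of Ncr1 and Klrb1c and 1 CD3 UMI, pooled over mice, held 2197 CPM of Gzma and 148 CPM of Eomes. Gzma and Eomes thus set members apart from CD3 positive cells without NK markers, and not from these cells.

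Of the genes at 100 CPM or more in members, those with the largest folds over CD3 positive cells were Klrb1c and Ncr1, which the gate used, and then Klra4, Klra8, Klrb1b, Klrb1a, Gzma, Klri2, Klrb1f, Tyrobp, Fcer1g, Serpinb6b, Serpinb9, Atp1b1 and Ccr2. The fold was 70.3 for Klra4, 22.9 for Gzma and 11.3 for Tyrobp, with 5 CPM added to both levels. These are descriptions, since the gate chose the cells. Just inside the threshold, the 168 members with exactly 2 UMIs of Ncr1 and Klrb1c held 2943 CPM of Gzma and 1067 CPM of Elane, a neutrophil granule protease, and the 930 members with 3 or more held 3017 CPM and 678 CPM. Just outside it, the 305 cells with 1 such UMI held 337 CPM of Gzma and 5239 CPM of Elane.

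Members held 363224 to 906480 UMIs per mouse in all, with a median per cell of 3144, 3318 and 3189.5 in Stag2 KO mice and 2988, 2974 and 2198 in Stag2 wt mice. WT3 was the shallowest. Cells over 8000 UMIs numbered 13, 12 and 6 among the Stag2 KO members and 1, 4 and 7 among the Stag2 wt members. Of 348 barcodes found in 2 or more libraries, 0 were shared among members, but 23 members, of 701 kept cells in all, carried 1 of them. The 10 listed neutrophil genes, all detected, summed to 5108, 1919 and 1024 CPM in the Stag2 KO mice, against 278, 277 and 1968 CPM in the Stag2 wt mice, with KO1 the highest. The 8 listed basophil and mast cell genes, all detected, summed to 296, 389 and 350.5 CPM in the Stag2 KO mice, against 702, 519 and 771 CPM in the Stag2 wt mice. The 8 listed monocyte genes, all detected, summed to 542, 543 and 464 CPM in the Stag2 KO mice, against 603, 635 and 859 CPM in the Stag2 wt mice, so the genotypes stood apart for both of these lists. The listed B cell (6 of 8 detected), plasmacytoid dendritic (8 of 8), erythroid (7 of 8) and stem cell (9 of 9) genes summed to at most 463 CPM each in any mouse. The B cell list leaves out the immunoglobulin genes Igkc, Igha and Jchain, which were lower in Stag2 KO members in the test across genes given below. Their log2 fold changes were -1.41, -1.53 and -1.51 (edgeR adjusted p = 0.00992, 0.0300 and 0.0187). Each lost its call without KO1 (0.0804, 0.172 and 0.110). Igha also lost its call without KO3 (0.0604) or WT3 (0.101), and Jchain without WT3 (0.116). The part of such RNA in the results was not tested.

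The share of NK-gated cells did not differ between genotypes beyond the spread between mice, while cells with CD3 were fewer in the Stag2 KO samples. The share of members among kept cells was 5.18%, 6.54% and 3.57% in the Stag2 KO mice, against 4.72%, 4.40% and 3.88% in the Stag2 wt mice. The groups overlapped, with the highest and the lowest share both in Stag2 KO mice. The means were 5.10% ± 1.49 in Stag2 KO and 4.33% ± 0.420 in Stag2 wt mice (SD, n = 3 each), a difference of 0.767 percentage points (2-sided exact permutation test, p = 0.5, adjusted p = 0.5 over 9 such tests).

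The share of CD3 positive cells was 2.32%, 4.52% and 1.65% in the Stag2 KO mice, against 9.07%, 6.91% and 7.62% in the Stag2 wt mice. All 3 Stag2 KO samples were below all 3 Stag2 wt samples, with KO2 the closest. The difference was -5.03 percentage points (exact permutation p = 0.1, adjusted p = 0.129). With 3 mice against 3 no exact p below 0.1 can be reached. Cells with both the NK markers and CD3, a combination that NKT cells and some other T cells carry, were 0.760%, 1.19% and 0.426% in the Stag2 KO mice, against 3.98%, 2.76% and 2.23% in the Stag2 wt mice. These also did not overlap (exact permutation p = 0.1, adjusted p = 0.129). They numbered 34, 29 and 16 in the Stag2 KO mice and 98, 122 and 151 in the Stag2 wt mice. Thinned to 1500 UMIs per cell, their share was 0.276%, 0.377% and 0.163% in Stag2 KO and 1.23%, 1.03% and 1.18% in Stag2 wt mice. Members may hold such cells whose CD3 RNA was not captured, and their part in the genotype differences was not tested. The number of members per CD3 positive cell was 2.23, 1.45 and 2.16 in the Stag2 KO mice, against 0.520, 0.636 and 0.510 in the Stag2 wt mice, so members outnumbered CD3 positive cells in every Stag2 KO mouse and in 0 Stag2 wt mice (exact permutation p = 0.1). With cells thinned to 1500 UMIs the ratio was 1.44, 0.914 and 1.54 in the Stag2 KO mice, against 0.396, 0.445 and 0.385 in the Stag2 wt mice, so KO2 no longer had more members, and the difference was 0.890 where it was 1.39 unthinned. Shares are of a sorted fraction, and what the sort removed is not given in the labels.

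**Figure D1:**
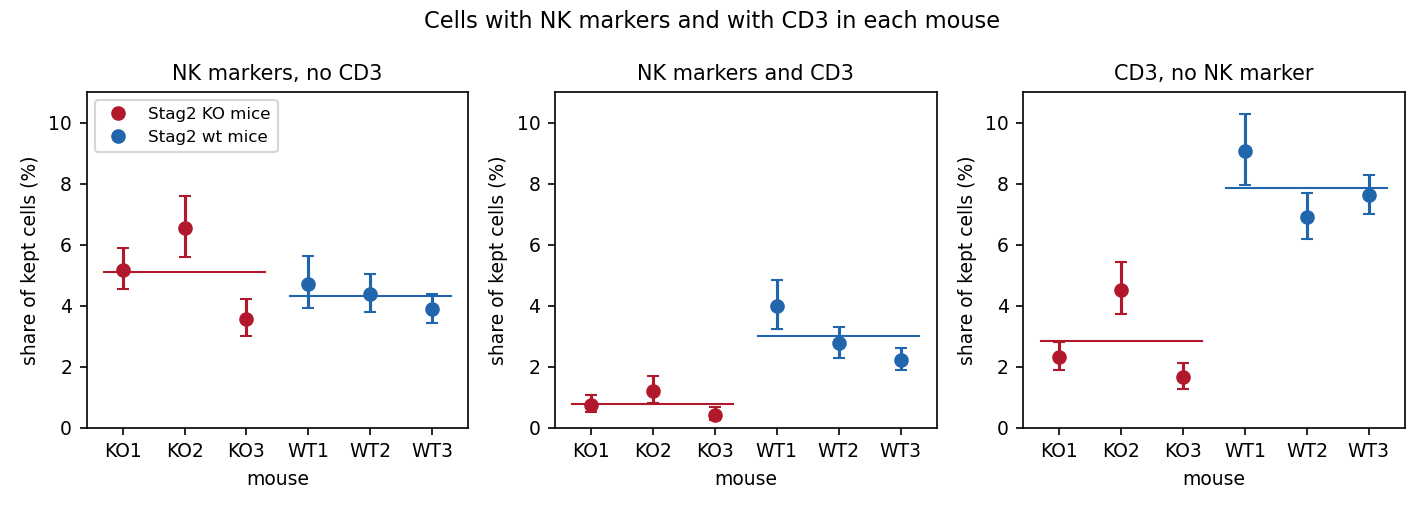
Share of kept cells (%) in each mouse for cells with NK markers and no CD3 (left), with both (middle) and with CD3 and no NK marker (right). Points are mice, bars are 95% exact binomial intervals that cover counting error only, and lines are genotype means; the Stag2 KO points lie below the Stag2 wt points in the middle and right panels and overlap them in the left one.

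Stag2 itself was measured in members at 29.8, 21.6 and 17.9 CPM in the Stag2 KO mice, against 52.3, 52.9 and 38.6 CPM in the Stag2 wt mice. The Stag2 KO values were all below the Stag2 wt values, but on only 27, 14 and 9 UMIs against 19, 33 and 27. The difference did not pass the test across genes (log2 fold change -1.0 ± 0.28 (SE), edgeR adjusted p = 0.0961). Stag2 passed edgeR's test in 3 alternatives, with at least 3 UMIs of Ncr1 and Klrb1c (adjusted p = 0.0401), with at least 1 Ncr1 UMI (0.0465) and with no filter on low counts (0.0493). The deleted part of the gene is not in the labels, and reads from the 3' end check a deletion only if they lie in it. In the cells with neither marker Stag2 was at 22.8 ± 2.85 CPM in Stag2 KO and 47.4 ± 6.82 CPM in Stag2 wt (SD, n = 3 each). Stag1, the paralogue that can replace it in cohesin, was at 58.6 ± 6.52 CPM in Stag2 KO and 48.9 ± 7.74 CPM in Stag2 wt in members (log2 fold change 0.21 ± 0.22 (SE), edgeR adjusted p = 0.843). Of 13 cohesin and loading genes 12 were tested and 0 changed.

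Across all genes of the members, 85 of 5567 tested differed between Stag2 KO and Stag2 wt mice (edgeR quasi-likelihood test on summed counts, Benjamini-Hochberg adjusted p below 0.05), which is 1.53% of them. Of these 25 were higher (0.449%) and 60 lower (1.08%) in Stag2 KO. At an unadjusted p under 0.05 there were 583. Genotypes did not overlap for 81 of the 85, against 15.6% of all genes tested (8.87% with Stag2 KO higher and 6.74% with Stag2 KO lower). With 2-fold changes put into simulated counts of this comparison the test found 68.9%, and with 4-fold changes 96.5%, so smaller changes could be missed. Ccl5 and Klra4 kept their calls in all 20 alternatives, and Fgl2, Itga4 and Socs2 in the 19 that had counts enough to test them. The calls numbered 42 without KO1, 54 without KO3 and 37 without WT2. They numbered 27 with a covariate for the title prefix, a code that WT1 shares with all 3 Stag2 KO samples and whose meaning is not given. That fit takes the genotype effect from the 3 Stag2 KO mice against WT1 alone, which is assumed to vary like the others, so calls kept or lost in it rest on 1 Stag2 wt mouse.

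Ly49 receptor genes were lower in the Stag2 KO members. Of 12 genes listed 11 were in the tables and 6 had enough counts to be tested; 5 fell, 0 rose, and the median log2 fold change of the 6 was -1.07, against a median of 2.69e-04 over all genes tested. Klra10 and Klra17 were at 0 UMIs in every member. The Ly49 genes lie side by side on chromosome 6 and have near-identical sequence stretches, so the counting may have split reads between them, and single members are less certain than the family. Their summed level was 1058, 845 and 1014 CPM in the Stag2 KO mice, against 1982, 2578 and 2366 CPM in the Stag2 wt mice.

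Klra4, which encodes the activating receptor Ly49D, was at 221, 154 and 205 CPM in the Stag2 KO mice, against 658, 838 and 777 CPM in the Stag2 wt mice. Every Stag2 KO sample was far below every Stag2 wt sample, and the means were 193 ± 34.8 CPM in Stag2 KO and 758 ± 91.6 CPM in Stag2 wt (SD, n = 3 each; log2 fold change -2.01 ± 0.14 (SE), edgeR adjusted p = 3.01e-07). Klra8, which encodes Ly49H, the activating receptor for a mouse cytomegalovirus protein, was at 332, 211 and 305 CPM in the Stag2 KO mice, against 479, 663 and 558 CPM in the Stag2 wt mice. The groups did not overlap, and KO2 was the lowest (log2 fold change -1.05 ± 0.16 (SE), edgeR adjusted p = 9.75e-04). Klra7, the gene of the inhibitory receptor Ly49G, was at 249, 213 and 253 CPM in the Stag2 KO mice, against 435, 527 and 508 CPM in the Stag2 wt mice. All Stag2 KO values lay below all Stag2 wt values (log2 fold change -1.09 ± 0.13 (SE), edgeR adjusted p = 1.18e-04).

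Klra9, the gene of Ly49I, stood at 126, 102 and 135 CPM in the Stag2 KO mice, against 182, 200.3 and 273 CPM in the Stag2 wt mice (log2 fold change -0.91 ± 0.17 (SE), edgeR adjusted p = 0.00609). Klra1, the gene of the inhibitory receptor Ly49A, stood at 37.5, 54.0 and 13.9 CPM in the Stag2 KO mice, against 85.3, 135 and 88.7 CPM in the Stag2 wt mice (log2 fold change -1.54 ± 0.29 (SE), edgeR adjusted p = 0.00851). KO3 was the lowest for Klra1, on 7 UMIs, and neither gene's genotypes overlapped. The call of Klra1 was lost without KO1 or WT2, at adjusted p = 0.0567 and 0.133. Klra3, the gene of Ly49C, had values of 88.3, 106 and 81.6 CPM in the Stag2 KO mice, against 102, 195 and 142 CPM in the Stag2 wt mice. Those groups overlapped and the test was not passed (log2 fold change -0.73 ± 0.20 (SE), edgeR adjusted p = 0.0859). With the title prefix as a covariate, which leaves WT1 as the only Stag2 wt mouse compared, Klra4 (-1.86, adjusted p = 1.03e-06) and Klra7 (-0.97, adjusted p = 0.0191) kept their calls, and Klra8, Klra9 and Klra1 did not, at adjusted p = 0.0576, 0.332 and 0.229.

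The promoters of 4 of the 5 Ly49 genes that fell are shown, those whose calls held without any 1 mouse, because they lie within 1 gene cluster and were lower together. The windows run from 250 bases before to 50 bases after the start, 5' to 3' on the minus strand, from RefSeq on GRCm38.p6, at chr6:130067222-130067521 for Klra4, chr6:130129849-130130148 for Klra8, chr6:130233273-130233572 for Klra7 and chr6:130193063-130193362 for Klra9. All 6 tested Ly49 genes matched the RefSeq table, and the window most like that of Klra4 was taken where a gene had several. Capitals mark the longest run that the 4 windows share, TTTCCTCTTTT, of 11 bases.
Klra4: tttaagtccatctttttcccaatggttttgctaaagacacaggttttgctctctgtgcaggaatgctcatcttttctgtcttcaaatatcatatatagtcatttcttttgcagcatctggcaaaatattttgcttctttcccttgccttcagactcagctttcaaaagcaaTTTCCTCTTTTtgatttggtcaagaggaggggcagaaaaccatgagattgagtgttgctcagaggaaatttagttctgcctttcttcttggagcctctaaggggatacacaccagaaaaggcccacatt
Klra8: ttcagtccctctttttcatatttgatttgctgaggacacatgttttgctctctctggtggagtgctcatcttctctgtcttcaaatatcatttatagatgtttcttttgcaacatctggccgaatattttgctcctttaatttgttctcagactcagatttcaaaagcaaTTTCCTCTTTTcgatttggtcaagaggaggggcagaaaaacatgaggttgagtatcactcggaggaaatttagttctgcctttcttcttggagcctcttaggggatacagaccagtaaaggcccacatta
Klra7: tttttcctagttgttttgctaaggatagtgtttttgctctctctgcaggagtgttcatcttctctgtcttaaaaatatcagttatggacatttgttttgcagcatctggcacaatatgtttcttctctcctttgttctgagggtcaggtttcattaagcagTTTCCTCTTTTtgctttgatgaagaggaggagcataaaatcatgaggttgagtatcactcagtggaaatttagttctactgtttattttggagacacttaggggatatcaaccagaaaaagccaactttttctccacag
Klra9: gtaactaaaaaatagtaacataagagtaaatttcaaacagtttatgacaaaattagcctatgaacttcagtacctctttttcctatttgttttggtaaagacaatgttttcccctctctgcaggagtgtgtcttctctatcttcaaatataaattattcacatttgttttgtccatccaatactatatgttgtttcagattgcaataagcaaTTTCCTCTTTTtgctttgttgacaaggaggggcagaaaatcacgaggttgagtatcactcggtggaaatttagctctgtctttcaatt
Over the overlap of the windows, Klra8 matched Klra4 at 86.6% of aligned bases, Klra7 at 80.1% and Klra9 at 71.9%. The shared run, searched on both strands, was in 49 of 32851 promoter windows (0.149%) of 46 genes, 8 of them Ly49 genes. Among the 8 was Klra3, which did not pass the test, and Klra1, which fell, was not among them. The RUNX core TGTGGT, searched on both strands, was in 0 of the 4 windows and in 16.8% of all windows. A match or its absence is a description of these letters only.

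Per cell, fewer members carried any Ly49 UMI in Stag2 KO. Members without a Ly49 UMI were 45.3%, 50.3% and 53.0% in the Stag2 KO mice, against 29.3%, 19.6% and 22.4% in the Stag2 wt mice, with every Stag2 KO sample above every Stag2 wt sample. The means were 49.5% ± 3.92 in Stag2 KO and 23.8% ± 5.0 in Stag2 wt mice (SD, n = 3 each), a difference of 25.7 percentage points (2-sided exact permutation p = 0.1, the smallest possible, adjusted p = 0.129). The number of Ly49 genes detected per member was 1.11, 1.0 and 1.01 in the Stag2 KO mice, against 1.79, 2.14 and 1.89 in the Stag2 wt mice. With each cell thinned to 1500 UMIs it was 0.810, 0.573 and 0.690 in the Stag2 KO mice, against 1.30, 1.67 and 1.68 in the Stag2 wt mice, again with no overlap. Of the cells with neither marker, 4.07%, 6.70% and 4.11% held a Ly49 UMI in the Stag2 KO mice, against 4.66%, 6.72% and 3.96% in the Stag2 wt mice. Their median depth was 4244 to 6515 UMIs, against 2198 to 3318 in members. These cells lack UMIs of Ncr1, Klrb1c and CD3 but had no limit on Siglech or the basophil genes. They may hold cells that express a Ly49 gene, so the share is not a background rate. Klra4 was detected in 15.9%, 13.2% and 14.9% of Stag2 KO members, against 41.4%, 49.5% and 41.4% of Stag2 wt members. For Klra4, a lower share of cells with a UMI stood beside the lower summed level.

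**Figure D2:**
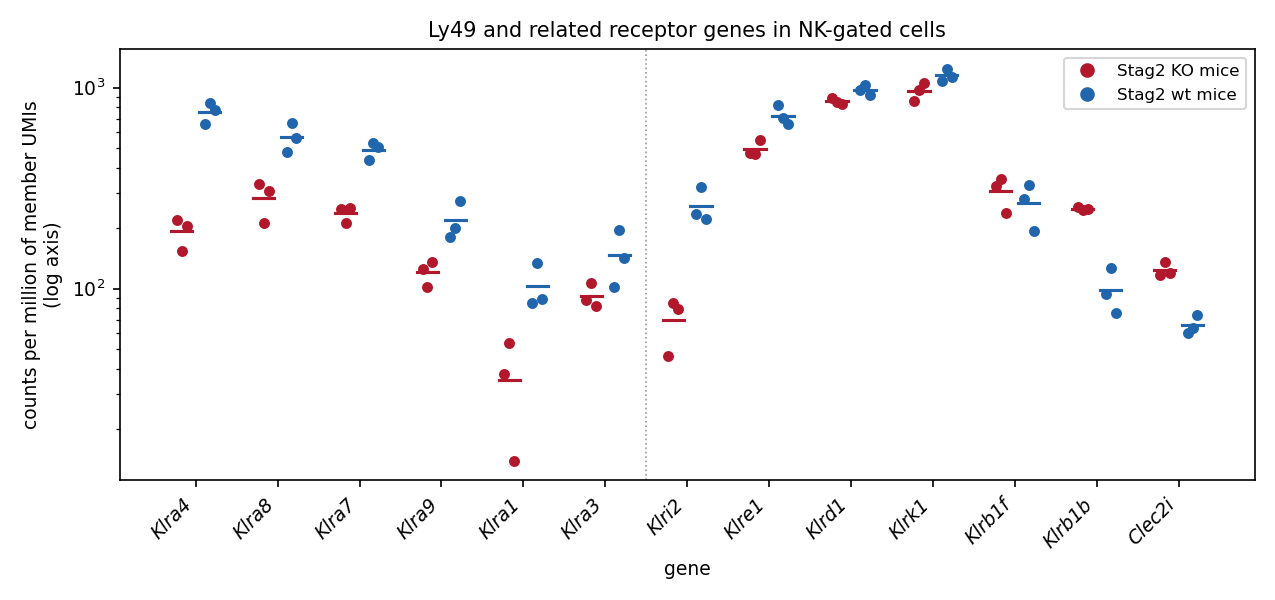
Level of Ly49 genes (left of the dotted line) and of other lectin-like receptor genes and 1 ligand gene (right of it) in members, in CPM on a log axis. Points are mice, Stag2 KO left of Stag2 wt, and short lines are means; Klra4 and Klri2 are lower in every Stag2 KO mouse, and Klrb1b and Clec2i are higher.

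Other lectin-like receptor genes moved in both directions. Of 15 listed 12 were tested, 2 rose and 2 fell. Klri2, which encodes a receptor that pairs with the product of Klre1, was at 46.3, 84.8 and 79.7 CPM in the Stag2 KO mice, against 234, 319 and 223 CPM in the Stag2 wt mice. Every Stag2 KO sample was below every Stag2 wt sample (log2 fold change -1.96 ± 0.21 (SE), edgeR adjusted p = 4.32e-05). Klre1 was at 472, 466 and 549.6 CPM in the Stag2 KO mice, against 815, 702 and 658 CPM in the Stag2 wt mice (log2 fold change -0.59 ± 0.13 (SE), edgeR adjusted p = 0.0271), with no overlap, and its call was lost without KO1, KO2, KO3, WT1 or WT2, at adjusted p = 0.0589 to 0.144. Klrb1b, the gene of the inhibitory receptor NKR-P1B, was at 255, 247 and 249 CPM in the Stag2 KO mice, against 93.6, 127 and 75.8 CPM in the Stag2 wt mice. The Stag2 KO samples were close together and all above the Stag2 wt samples (log2 fold change 1.30 ± 0.17 (SE), edgeR adjusted p = 3.23e-04). Clec2i, which encodes a ligand of NKR-P1 receptors, was at 117, 136 and 119 CPM in the Stag2 KO mice, against 60.6, 64.1 and 74.4 CPM in the Stag2 wt mice (log2 fold change 0.84 ± 0.17 (SE), edgeR adjusted p = 0.0135). It did not overlap, and its call was lost without KO2 (0.0773) or WT2 (0.120). With DESeq2 its call was lost as well (DESeq2 adjusted p = 0.119). In cells with neither marker Clec2i was at 43.1 ± 4.62 CPM in Stag2 KO and 26.0 ± 1.53 CPM in Stag2 wt (SD, n = 3 each), so it stood apart there too. The genes of NKG2D, Klrk1 (-0.30 ± 0.11, adjusted p = 0.309), of CD94, Klrd1 (-0.23 ± 0.11, adjusted p = 0.482), and of the inhibitory NKG2A, Klrc1 (-0.53 ± 0.19, adjusted p = 0.250), did not pass edgeR's test, and neither did Klrb1a and Klrb1f.

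All these genes lie in the natural killer gene complex of chromosome 6. Between Klrb1a and Klra1 (chr6:128609227-130386874, GRCm38 by GENCODE M21) 22 genes were tested and 9 of them (40.9%) were called, 2 higher and 7 lower, against 76 of 5545 genes elsewhere (1.37%). The stretch was chosen after its values were seen and overlaps the receptor lists. Genes of it that were not called included Klrd1, Klrk1, Klrc1 and Klrc2 between the called Klre1 and Klri2. Whether the mice differ in their alleles of this stretch is not given in the labels and was not tested.

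Ccl5, the chemokine that draws T cells and monocytes, was the 1 gene of 9 tested for secreted factors that was called. It stood at 5633, 6969 and 4747 CPM in the Stag2 KO mice, against 12037, 13916 and 16054 CPM in the Stag2 wt mice. All Stag2 KO samples were below all Stag2 wt samples, with means of 5783 ± 1118 CPM in Stag2 KO and 14002 ± 2010.1 CPM in Stag2 wt (SD, n = 3 each; log2 fold change -1.31 ± 0.13 (SE), edgeR adjusted p = 1.44e-05). A Ccl5 UMI was present in 94.4%, 93.1% and 87.3% of Stag2 KO members and 99.1%, 97.4% and 98.1% of Stag2 wt members. Nearly all members of both genotypes were thus positive, and the level differed. In cells with neither marker, at their higher depth, the share was 6.83%, 21.2% and 5.95% in Stag2 KO and 31.6%, 29.3% and 24.3% in Stag2 wt mice, at 22.6 ± 14.6 CPM in Stag2 KO and 72.0 ± 9.09 CPM in Stag2 wt (SD, n = 3 each). These cells differed in the same direction at a far lower level, and the part of that RNA in the members' difference was not tested. Within late-leaning members alone (defined below) the log2 fold change was -0.85 (edgeR adjusted p = 6.20e-04), but Ccl5 is itself among the genes that define that class, so this value is no independent test. The other 8 did not pass, among them Xcl1 (0.36 ± 0.15, adjusted p = 0.404 by edgeR), Ccl4 (0.09, 0.975), Ccl3 (-0.32, 0.843) and Ifng (0.79, 0.487).

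Of 17 genes of the lytic machinery 15 were tested, 3 fell and 0 rose, with a median log2 fold change of -0.18. Gzma was at 2687, 2034 and 2067 CPM in the Stag2 KO mice, against 2635, 4262 and 4069 CPM in the Stag2 wt mice. KO1 was above WT1, so the groups overlapped (log2 fold change -0.73 ± 0.14 (SE), edgeR adjusted p = 0.00910). Gzmb, the gene of granzyme B, was at 101, 49.3 and 65.7 CPM in the Stag2 KO mice, against 85.3, 317 and 153 CPM in the Stag2 wt mice, with KO1 above WT1 and WT2 far above the rest (log2 fold change -1.40 ± 0.32 (SE), edgeR adjusted p = 0.03). Nkg7, a granule membrane protein gene, was at 2953, 2774 and 2923 CPM in the Stag2 KO mice, against 3441, 4016 and 4123 CPM in the Stag2 wt mice, with no overlap (log2 fold change -0.46 ± 0.09 (SE), edgeR adjusted p = 0.0103). None of these calls held without WT2, where the adjusted p was 0.123 for Gzma, 0.361 for Gzmb and 0.0691 for Nkg7. Gzma was also lost without KO3 (0.0693), Gzmb without KO2 (0.130) or KO3 (0.119), and Nkg7 without KO1 (0.0676) or KO3 (0.0693). Within late-leaning members the edgeR adjusted p was 0.262, 0.282 and 0.322 for Gzma, Gzmb and Nkg7. Gzmb is among the genes that define that class, so its value there is no independent test. With the title prefix as a covariate, against WT1 alone, the log2 fold change and adjusted p were -0.32 and 0.402 for Gzma, -0.30 and 0.883 for Gzmb, and -0.35 and 0.190 for Nkg7, so all 3 calls were lost. Prf1, the gene of perforin, was at 22.4 ± 8.57 CPM in Stag2 KO and 29.8 ± 1.01 CPM in Stag2 wt (SD, n = 3 each; log2 fold change -0.37 ± 0.32 (SE), edgeR adjusted p = 0.785). The granule cysteine protease gene Ctsw was at 558 ± 29.8 CPM in Stag2 KO and 554 ± 31.9 CPM in Stag2 wt (adjusted p = 0.966 by edgeR).

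Of 19 signalling genes 2 fell and 0 rose, and both encode adaptors of activating receptors. Tyrobp, which encodes DAP12, the adaptor that carries signals from the activating Ly49 receptors, was at 2629, 2405 and 2525 CPM in the Stag2 KO mice, against 3571, 3749.7 and 3681 CPM in the Stag2 wt mice. The groups stood well apart, each within a narrow range (log2 fold change -0.58 ± 0.09 (SE), edgeR adjusted p = 0.00103). Fcer1g, the adaptor of the Fc receptor and of NKp46, was at 2095, 2057 and 2069 CPM in the Stag2 KO mice, against 2866, 2892 and 2866 CPM in the Stag2 wt mice, also with no overlap (log2 fold change -0.51 ± 0.09 (SE), edgeR adjusted p = 0.00497). Both kept their calls in all 6 fits that left out a mouse. In late-leaning members alone Tyrobp had a log2 fold change of -0.40 (adjusted p = 0.0425 by edgeR) and Fcer1g one of -0.40 (adjusted p = 0.0612). Both genes are also used by myeloid cells, and in the cells with neither marker Tyrobp was at 1618 ± 238 CPM in Stag2 KO and 1918 ± 93.3 CPM in Stag2 wt and Fcer1g at 938 ± 104 CPM in Stag2 KO and 1355 ± 84.4 CPM in Stag2 wt (SD, n = 3 each). The adaptor genes Hcst (-0.16 ± 0.11, adjusted p = 0.704) and Cd247 (0.08 ± 0.21, adjusted p = 0.945) did not pass edgeR's test.

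Of 22 homing and adhesion genes 17 were tested, 3 fell and 0 rose. Itga4, the alpha chain of the integrin that binds VCAM-1, was at 58.5, 33.9 and 51.8 CPM in the Stag2 KO mice, against 129, 128 and 147 CPM in the Stag2 wt mice. Every Stag2 KO value was below every Stag2 wt value by a wide margin (log2 fold change -1.51 ± 0.19 (SE), edgeR adjusted p = 1.98e-04). The integrin chain gene Itgb2 was at 128, 145 and 153 CPM in the Stag2 KO mice, against 179, 293 and 199 CPM in the Stag2 wt mice. The groups did not overlap (log2 fold change -0.72 ± 0.17 (SE), edgeR adjusted p = 0.0421). Its call was lost without KO1, KO2, KO3 or WT2 (adjusted p up to 0.370). Ccr2 (-0.26, adjusted p = 0.523), Cxcr3 (-0.14, 0.878), Itgal (-0.17, 0.790) and S1pr1 (1.04, 0.0874) did not pass edgeR's test. Of the 12 tested genes of other receptors 2 fell, Slamf6, a receptor that binds itself on other lymphocytes, and Cd160. Slamf6 was at 22.1, 12.3 and 17.9 CPM in the Stag2 KO mice, against 66.1, 65.7 and 34.3 CPM in the Stag2 wt mice (log2 fold change -1.61 ± 0.32 (SE), edgeR adjusted p = 0.0126), and its call was lost without KO2 (0.0503) or WT2 (0.165). Cd160 was at 45.2, 55.5 and 99.6 CPM in the Stag2 KO mice, against 135, 173 and 100.2 CPM in the Stag2 wt mice (log2 fold change -1.13 ± 0.25 (SE), edgeR adjusted p = 0.0269), and its call was lost without KO1 (0.192), KO2 (0.0957) or WT2 (0.281). Both kept their groups apart.

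Other large falls were in genes of varied roles, and their groups did not overlap. Fgl2, a fibrinogen-like protein gene, was at 17.7, 26.2 and 13.9 CPM in the Stag2 KO mice, against 79.8, 94.5 and 87.3 CPM in the Stag2 wt mice (log2 fold change -2.20 ± 0.25 (SE), edgeR adjusted p = 5.83e-05). Camk2n1, an inhibitor of calmodulin-dependent kinase, was at 27.6, 21.6 and 29.9 CPM in the Stag2 KO mice, against 85.3, 101 and 63.0 CPM in the Stag2 wt mice (log2 fold change -1.68 ± 0.25 (SE), edgeR adjusted p = 9.72e-04). Both were low in all Stag2 KO samples and kept their calls without any 1 mouse. Phactr3 (log2 fold change -2.35 ± 0.39, edgeR adjusted p = 0.00261) and Gstp1, a glutathione transferase gene (-2.38 ± 0.35, adjusted p = 9.75e-04), did so too. With the title prefix as a covariate, against WT1 alone, Gstp1 was at -1.16 (adjusted p = 0.504 by edgeR) and Phactr3 at -2.46 (adjusted p = 0.0572), and both calls were lost. Dcp1b (-1.87 ± 0.36, adjusted p = 0.0102 by edgeR) and Scimp (-1.58 ± 0.31, adjusted p = 0.0108) lost their calls without KO1 (0.0938 and 0.0821) or WT2 (0.0644 and 0.133). Gstp1 also has a close copy in the mouse genome, which the counting could have split from it, and was at 15.8 ± 4.35 CPM in Stag2 KO and 51.4 ± 19.3 CPM in Stag2 wt in cells with neither marker.

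**Figure D3:**
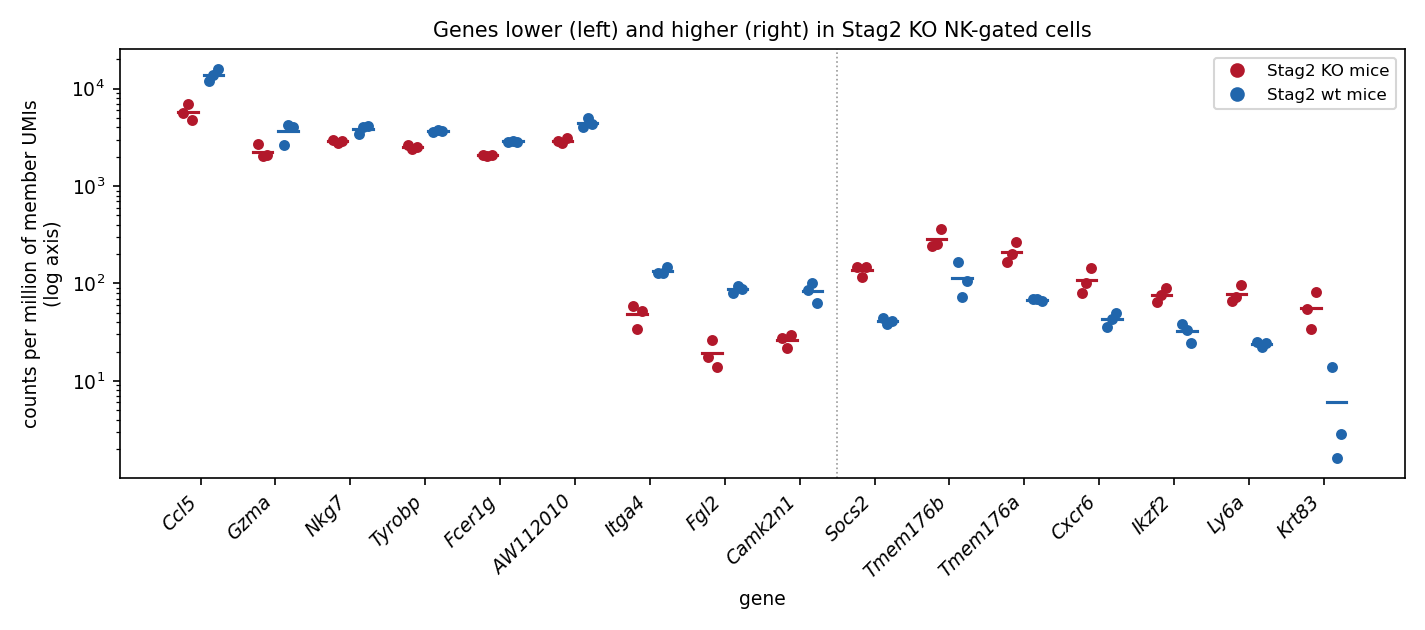
Level of 9 genes that were lower (left of the dotted line) and 7 that were higher (right of it) in Stag2 KO members, in CPM on a log axis. Points are mice, Stag2 KO left of Stag2 wt, and short lines are means; the genotypes overlap for Gzma and stand apart for the other genes drawn.

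Genes listed for ILC1 of mouse liver were among those that rose. Of 13 listed, 8 were tested, 4 rose and 0 fell, with a median log2 fold change of 1.13 and 8 of 8 above 0. Tmem176a, a membrane channel-like protein gene, was at 167, 199 and 267 CPM in the Stag2 KO mice, against 68.8, 68.9 and 65.8 CPM in the Stag2 wt mice. The lowest Stag2 KO value was well above the highest Stag2 wt value (log2 fold change 1.58 ± 0.19 (SE), edgeR adjusted p = 1.18e-04). Its neighbour Tmem176b was at 243, 254 and 360.4 CPM in the Stag2 KO mice, against 165, 72.1 and 106 CPM in the Stag2 wt mice (log2 fold change 1.32 ± 0.23 (SE), edgeR adjusted p = 0.00374), with no overlap, and its call was lost without WT2 (adjusted p = 0.05). Cxcr6, a chemokine receptor gene of tissue-resident lymphocytes, was at 80.5, 100.2 and 145 CPM in the Stag2 KO mice, against 35.8, 43.3 and 50.1 CPM in the Stag2 wt mice (log2 fold change 1.22 ± 0.23 (SE), edgeR adjusted p = 0.00910). It did not overlap and lost its call without WT2 (0.0924). Ikzf2, the gene of the transcription factor Helios, was at 64.0, 75.5 and 89.6 CPM in the Stag2 KO mice, against 38.5, 33.7 and 24.3 CPM in the Stag2 wt mice (log2 fold change 1.23 ± 0.24 (SE), edgeR adjusted p = 0.0108), with no overlap, and lost its call without KO3, WT2 or WT3 (0.0531, 0.0644 and 0.0569). Rora stood at 51.8, 49.3 and 69.7 CPM in the Stag2 KO mice, against 33.0, 27.2 and 21.5 CPM in the Stag2 wt mice, all Stag2 KO above all Stag2 wt, and did not pass the test (log2 fold change 1.05 ± 0.26 (SE), edgeR adjusted p = 0.0503). Il7r was at 40.3 ± 14.1 CPM in Stag2 KO and 35.2 ± 18.4 CPM in Stag2 wt (adjusted p = 0.9 by edgeR), and Itga1, Tnfsf10, Cd200r1, Zfp683 and Gpr55 were too low to test.

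A Tmem176a UMI was present in 25.4%, 35.2% and 33.6% of Stag2 KO members and 11.2%, 11.3% and 9.51% of Stag2 wt members. In CD3 positive cells the share was 10.6%, 12.7% and 14.5% in Stag2 KO and 6.28%, 6.89% and 4.07% in Stag2 wt mice, also without overlap. Cells with neither marker held a UMI in 34.1%, 31.2% and 38.1% in Stag2 KO and 27.5%, 32.0% and 24.0% in Stag2 wt mice, at 74.4 ± 10.0 CPM in Stag2 KO and 76.5 ± 9.11 CPM in Stag2 wt (SD, n = 3 each). The level in Stag2 wt members was no higher than in those cells and that in Stag2 KO members was. Among members with at least 1 Ncr1 UMI the log2 fold change was 1.59 for Tmem176a (adjusted p = 2.94e-04 by edgeR) and 1.23 for Cxcr6 (adjusted p = 0.00768). With the title prefix as a covariate, again against WT1 alone, Tmem176a kept its call (adjusted p = 0.0259) and Tmem176b (0.390), Cxcr6 (0.125) and Ikzf2 (0.483) did not.

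Socs2, a feedback inhibitor of cytokine signalling, was at 148, 117 and 147 CPM in the Stag2 KO mice, against 44.0, 38.5 and 41.5 CPM in the Stag2 wt mice. The lowest Stag2 KO value was well above the highest Stag2 wt value (log2 fold change 1.71 ± 0.18 (SE), edgeR adjusted p = 4.32e-05). Ly6a, which encodes the stem cell and activation antigen Sca-1, was at 66.2, 72.5 and 95.6 CPM in the Stag2 KO mice, against 24.8, 22.4 and 24.3 CPM in the Stag2 wt mice, with no overlap (log2 fold change 1.64 ± 0.24 (SE), edgeR adjusted p = 9.75e-04). Cd28, a costimulatory receptor gene of T cells, was at 101, 95.6 and 99.6 CPM in the Stag2 KO mice, against 68.8, 56.1 and 41.5 CPM in the Stag2 wt mice. It did not overlap (log2 fold change 0.85 ± 0.20 (SE), edgeR adjusted p = 0.0361), but it lost its call without each mouse except WT1, at adjusted p up to 0.183. Krt83, a hair keratin gene, was at 54.1, 33.9 and 81.6 CPM in the Stag2 KO mice, against 13.8, 1.60 and 2.86 CPM in the Stag2 wt mice (log2 fold change 3.43 ± 0.50 (SE), edgeR adjusted p = 9.72e-04), and the Stag2 wt values rest on 5, 1 and 2 UMIs. With the title prefix as a covariate, against WT1 alone, the calls of Ly6a (1.52, 0.129), Krt83 (1.88, 0.217) and Cd28 (0.43, 0.716) were lost, where the values are the log2 fold change and the edgeR adjusted p. Podnl1 (1.82 ± 0.40, edgeR adjusted p = 0.0248) and Klk8 (1.36 ± 0.30, adjusted p = 0.0243) also rose, and Klk8 was at 65.7 ± 5.41 CPM in Stag2 KO and 42.9 ± 3.44 CPM in Stag2 wt in cells with neither marker; Podnl1 lost its call without KO2, KO3, WT2 or WT3 (up to 0.144) and Klk8 without KO1 or WT2 (up to 0.168). Trdc, the constant region of the T cell receptor delta chain, which NK cells also transcribe, was at 66.2, 50.9 and 59.7 CPM in the Stag2 KO mice, against 138, 94.5 and 90.2 CPM in the Stag2 wt mice (log2 fold change -0.85 ± 0.20 (SE), edgeR adjusted p = 0.0452). Its groups did not overlap, and it lost its call without each mouse except WT3 (up to 0.162).

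Several groups that define NK cells did not pass the test. Of 23 transcription factors 20 were tested and Ikzf2 alone was called. Eomes was at 111, 142 and 133 CPM in the Stag2 KO mice, against 182, 154 and 157 CPM in the Stag2 wt mice, all Stag2 KO below all Stag2 wt, but with log2 fold change -0.39 ± 0.16 (SE), edgeR adjusted p = 0.372. Tbx21, the gene of T-bet, was at 92.2 ± 27.4 CPM in Stag2 KO and 78.9 ± 4.72 CPM in Stag2 wt (log2 fold change 0.15 ± 0.20 (SE), edgeR adjusted p = 0.876), and Id2 at 1327 ± 104 CPM in Stag2 KO and 1470.0 ± 112 CPM in Stag2 wt (log2 fold change -0.19 ± 0.11 (SE), edgeR adjusted p = 0.593). Zeb2, which late NK cells raise, was at 33.1 ± 6.25 CPM in Stag2 KO and 57.7 ± 6.68 CPM in Stag2 wt, with no overlap (log2 fold change -0.79 ± 0.24 (SE), edgeR adjusted p = 0.138). Of 14 tested cytokine receptor genes 0 were called, with Il2rb, the receptor chain for interleukins 2 and 15, at 391 ± 35.5 CPM in Stag2 KO and 405 ± 49.5 CPM in Stag2 wt (log2 fold change -0.10 ± 0.13 (SE), edgeR adjusted p = 0.879). Of 11 MHC class I genes 0 were called, with 10 of 11 log2 fold changes below 0 and a median of -0.36. H2-D1, one of the MHC class I molecules that Ly49 receptors read, was at 2621 ± 207 CPM in Stag2 KO and 3245 ± 509 CPM in Stag2 wt (log2 fold change -0.35 ± 0.10 (SE), edgeR adjusted p = 0.133). B2m was at 3599 ± 193 CPM in Stag2 KO and 4253 ± 536 CPM in Stag2 wt (log2 fold change -0.28 ± 0.10 (SE), edgeR adjusted p = 0.235). These misses do not show that the levels were the same. Of 7 tested immediate early genes, 6 MHC class II genes, 2 genes of other innate lymphoid cells and 6 housekeeping genes 0 were called. Of 14 tested interferon-induced genes Ly6a rose, and Ly6e and Ifitm1 fell. Of 5 tested T cell genes Cd28 rose and Trdc fell.

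Some called genes also differed in the cells with neither marker, so RNA from other cells cannot be told apart from RNA of the members for them. S100a8, a calcium-binding protein gene of neutrophils, was at 685, 134 and 79.7 CPM in the Stag2 KO mice, against 30.3, 20.8 and 68.7 CPM in the Stag2 wt mice in members (log2 fold change 2.85 ± 0.60 (SE), edgeR adjusted p = 0.0199) and at 2956 ± 465 CPM in Stag2 KO and 955 ± 734 CPM in Stag2 wt in cells with neither marker. KO1 was far above the other mice. Of the 7 tested neutrophil genes S100a8, S100a9 and Camp rose and 0 fell. S100a9 (2.79 ± 0.52, edgeR adjusted p = 0.00797), Camp (1.98 ± 0.46, 0.0329), Prss57 (2.52 ± 0.58, 0.0323) and Wfdc21 (3.45 ± 0.68, 0.0115) rose by edgeR's test, and only Camp overlapped between genotypes in these 5. Their means in cells with neither marker were 1575, 932, 199 and 310.3 CPM in Stag2 KO and 365, 178, 85.1 and 75.1 CPM in Stag2 wt. None of these 5 held without WT2 (adjusted p = 0.230, 0.133, 0.269, 0.275 and 0.153), and of them S100a9 alone held without KO1. Camp also lost its call without KO2 (0.130).

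Of 4 tested genes of basophils and mast cells Mcpt8, Prss34 and Ifitm1 fell. Mcpt8 was at 88.3, 126 and 115 CPM in the Stag2 KO mice, against 251, 195 and 308 CPM in the Stag2 wt mice in members (log2 fold change -1.25 ± 0.19 (SE), edgeR adjusted p = 0.00103) and at 2867 ± 353 CPM in Stag2 KO and 6692 ± 756 CPM in Stag2 wt in cells with neither marker. Prss34 was at 170.3 ± 28.5 CPM in Stag2 KO and 300.1 ± 76.5 CPM in Stag2 wt (log2 fold change -0.86 ± 0.19 (SE), edgeR adjusted p = 0.0271), with 4457 ± 693 CPM in Stag2 KO and 8185 ± 789 CPM in Stag2 wt in those cells, and lost its call without KO1, KO3 or WT1 (up to 0.188). Ifitm1, an interferon-induced gene that basophils also carry, was at 14.6 ± 6.27 CPM in Stag2 KO and 65.4 ± 22.3 CPM in Stag2 wt (log2 fold change -2.33 ± 0.33 (SE), edgeR adjusted p = 8.52e-04) beside 123 ± 17.5 CPM in Stag2 KO and 941 ± 59.8 CPM in Stag2 wt in cells with neither marker. The macrophage and lipid carrier gene Apoe was at 16.5, 12.3 and 19.9 CPM in the Stag2 KO mice, against 30.3, 52.9 and 177 CPM in the Stag2 wt mice (log2 fold change -2.58 ± 0.49 (SE), edgeR adjusted p = 0.00848), with WT3 far above the rest, and was lost without KO1 (0.0641). The histone gene Hist1h2ap was at 41.9, 40.1 and 15.9 CPM in the Stag2 KO mice, against 60.6, 209.9 and 140.2 CPM in the Stag2 wt mice (log2 fold change -2.08 ± 0.33 (SE), edgeR adjusted p = 0.00148) and at 99.8 ± 25.0 CPM in Stag2 KO and 511 ± 243 CPM in Stag2 wt in cells with neither marker. It has near-identical copies. With the highest doublet scores removed its log2 fold change was -0.11 (edgeR adjusted p = 0.962). In members with at most 8000 UMIs it was -4.89 (edgeR adjusted p = 6.88e-06). With the title prefix as a covariate, against WT1 alone, the log2 fold change and edgeR adjusted p were -1.85 and 0.117 for Ifitm1, -1.01 and 0.718 for Apoe and -0.91 and 0.525 for Hist1h2ap, and these calls were lost. All SDs in this paragraph are over 3 mice.

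To describe maturity, a member was called late-leaning when UMIs of 8 late genes (Itgam, Klrg1, Cx3cr1, S1pr5, Zeb2, Cma1, Gzmb and Ccl5) outnumbered those of 8 early genes (Cd27, Ltb, Emb, Ctla2a, Thy1, Cd7, Tcf7 and Xcl1), and early-leaning in the reverse case. The classes are ranges of a score and not cell types. Late-leaning members were 66.4%, 70.4% and 53.7% in the Stag2 KO mice, against 86.2%, 86.1% and 91.3% in the Stag2 wt mice. All Stag2 KO samples were below all Stag2 wt samples, with KO3 the lowest. The means were 63.5% ± 8.71 in Stag2 KO and 87.8% ± 2.95 in Stag2 wt mice (SD, n = 3 each), a difference of -24.3 percentage points (2-sided exact permutation p = 0.1, the smallest possible, adjusted p = 0.129). Ccl5 supplied most late UMIs, so the share largely repeats the Ccl5 result. Without Ccl5 in the list the share was 2.59%, 0% and 0.746% in the Stag2 KO mice, against 5.17%, 8.76% and 4.94% in the Stag2 wt mice. The difference was -5.18 points, but few members were then late-leaning in any mouse, so it says little of maturity. With Ccl5 kept, the share in members with no T cell receptor constant UMI was 71.1%, 64.3% and 80.0% in the Stag2 KO mice, against 91.7%, 53.6% and 85.7% in the Stag2 wt mice. The genotypes overlapped and the difference was -5.20 points (exact permutation p = 0.7). The cells within 1 UMI of the cut numbered 17, 4 and 7 in Stag2 KO mice and 3, 5 and 6 in Stag2 wt mice. Of the late genes 6 were tested by genotype, all 6 had log2 fold changes below 0, and Ccl5, Gzmb and Cma1 fell. Cma1, the gene of a chymase, was at 29.8, 13.9 and 17.9 CPM in the Stag2 KO mice, against 46.8, 88.1 and 41.5 CPM in the Stag2 wt mice (log2 fold change -1.49 ± 0.33 (SE), edgeR adjusted p = 0.0271), and its call was lost without KO2, KO3 or WT2 (up to 0.336). Of the 8 early genes Thy1, a surface glycoprotein gene, alone was called, and it fell as well. It was at 146, 151 and 155 CPM in the Stag2 KO mice, against 275, 263 and 196 CPM in the Stag2 wt mice (log2 fold change -0.73 ± 0.16 (SE), edgeR adjusted p = 0.0243), and its call was lost without each mouse except WT3 (up to 0.167).

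**Figure D4:**
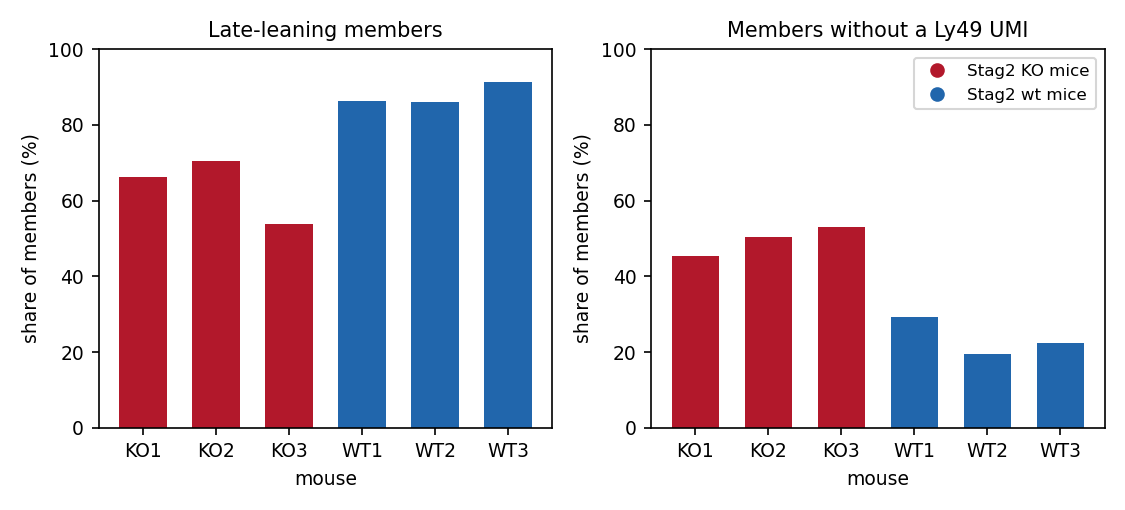
Share of members (%) in each mouse that were late-leaning (left) and that had no Ly49 UMI (right). Bars are single mice, Stag2 KO left of Stag2 wt; late-leaning shares run from 53.7% to 70.4% in Stag2 KO and from 86.1% to 91.3% in Stag2 wt mice.

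With the mouse as a block and the 16 split genes left out, 170 of 4386 genes (3.88%) differed between late- and early-leaning members of the 6 mice, 70 higher (1.6%) and 100 lower (2.28%) in late-leaning members. Klra9 was at 214 ± 53.6 CPM in late-leaning and 54.5 ± 44.7 CPM in early-leaning members (SD, n = 6 mice; log2 fold change 2.33 ± 0.25 (SE), edgeR adjusted p = 1.96e-08). Klra8 (1.63 ± 0.17, edgeR adjusted p = 1.71e-08) and Klra4 (1.42 ± 0.21, 8.63e-06) were also higher, and 4 of the 6 tested Ly49 genes were. Gzma was at 3411 ± 828 CPM in late-leaning and 1789 ± 1227 CPM in early-leaning members (log2 fold change 1.16 ± 0.15 (SE), edgeR adjusted p = 1.37e-06). Klf2, a transcription factor gene of lymphocyte exit from tissue, was higher at 1.21 ± 0.16 (adjusted p = 9.99e-07 by edgeR), and so were S100a6 (1.35 ± 0.18, 1.37e-06) and Trim12a (1.17 ± 0.26, 0.00398). S100a8 was higher too (1.30 ± 0.32, 0.0104), but at adjusted p = 0.867 without KO1.

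Cell cycle genes were lower in late-leaning members. Early-leaning members numbered 72, 46 and 61 in the Stag2 KO mice, against 14, 24 and 18 in the Stag2 wt mice. The summed cycle level of all members was 1102, 988 and 1151 CPM in the Stag2 KO mice, against 741, 953 and 1030 CPM in the Stag2 wt mice. Without members over 8000 UMIs it was 481, 403 and 645 CPM in Stag2 KO and 631, 674 and 775 CPM in Stag2 wt mice. The late-against-early fit was not run without such deep cells or high doublet scores, so their part in it was not tested. Of the listed S phase genes 9 of 14 tested, and of the listed G2 and M phase genes 6 of 7, were lower and 0 were higher. Top2a, the DNA topoisomerase of dividing cells, was at 39.8 ± 16.9 CPM in late-leaning and 226 ± 93.9 CPM in early-leaning members (log2 fold change -2.48 ± 0.22 (SE), edgeR adjusted p = 5.66e-10). Birc5 (-2.41 ± 0.34, edgeR adjusted p = 5.71e-06), Tyms (-1.98 ± 0.31, 3.21e-05) and Cks1b (-1.92 ± 0.28, 8.63e-06) were lower as well. Of the 6 tested MHC class II genes 5 were lower, among them Cd74 (-2.38 ± 0.23, 2.43e-09) and H2-Aa (-2.46 ± 0.40, 5.23e-05), which antigen-presenting cells express. The ILC1 list was lower for 5 of 9 tested genes, among them Tmem176b at 135 ± 80.9 CPM in late-leaning and 411 ± 198 CPM in early-leaning members (log2 fold change -1.43 ± 0.22 (SE), edgeR adjusted p = 2.21e-05). Of the 60 genes that fell in Stag2 KO members 17 were higher in late-leaning members, and of the 25 that rose 6 were lower in them; 76 of the 85 had a value in both tests, and both tests use the same members. In late-leaning members alone 48 genes differed by genotype, 43 of them among the 85.

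The summed level of S, G2 and M phase genes was 1080.4 ± 83.5 CPM in Stag2 KO and 908 ± 150.1 CPM in Stag2 wt members (SD, n = 3 each), with overlap (exact permutation p = 0.2, adjusted p = 0.225). The difference of 172 CPM turned to -183 CPM in members with at most 8000 UMIs and to -206 CPM after thinning. With members limited to the deposited cluster that held most of them, picked for each mouse, it was -38.7 CPM. Of 13 tested S phase genes and 6 tested G2 and M phase genes 0 differed by genotype.

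The genotype effect was then set against that in CD3 positive cells of the same mice. In CD3 positive cells 21 of 5244 genes (0.4%) differed by genotype, 10 higher (0.191%) and 11 lower (0.21%), and 9 of the 85 genes called in members were called there in the same direction. The difference of the 2 effects passed the test for 16 of 6642 genes (0.241%), 2 higher (0.0301%) and 14 lower (0.211%) in members, and 11 of the 16 were among the 85. With 2-fold differences put into simulated counts this test found 15.8%, and with 4-fold ones 72.9%, so most 2-fold differences could be missed. Ccl5 was at 6893, 10307 and 10509.5 CPM in the Stag2 KO mice, against 6870.2, 9205 and 8747 CPM in the Stag2 wt mice in CD3 positive cells. Those groups overlapped, and the effect there was 0.08 ± 0.15 (adjusted p = 0.967 by edgeR), so that the effects differed by -1.38 ± 0.14 (adjusted p = 3.02e-05). Fgl2 was at 64.3, 56.8 and 86.1 CPM in the Stag2 KO mice, against 56.4, 42.8 and 42.8 CPM in the Stag2 wt mice in CD3 positive cells, with an effect of 0.41 ± 0.25, and the difference was -2.62 ± 0.37 (adjusted p = 8.80e-04 by edgeR). Thus neither gene's fall in members was matched in CD3 positive cells.

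AW112010 was at 2915, 2775 and 3128 CPM in the Stag2 KO mice, against 4066, 4992 and 4359 CPM in the Stag2 wt mice in members (log2 fold change -0.65 ± 0.09 (SE), edgeR adjusted p = 8.05e-04), and the difference of its effects was -1.04 ± 0.12 (adjusted p = 6.44e-05 by edgeR). Gimap7, a GTPase gene of lymphocytes, was at 60.7, 46.3 and 102 CPM in the Stag2 KO mice, against 168, 157 and 162 CPM in the Stag2 wt mice in members, and its effects differed by -1.59 ± 0.21 (adjusted p = 4.99e-04 by edgeR). Both were lower in every Stag2 KO mouse. Gzmb differed by -2.23 ± 0.32 (adjusted p = 0.00108 by edgeR; 0.0515 without WT2). Cd74, the MHC class II chaperone gene, was the opposite case. It was at 26.8, 46.6 and 15.2 CPM in the Stag2 KO mice, against 368, 223 and 166 CPM in the Stag2 wt mice in CD3 positive cells (log2 fold change -3.02 ± 0.37 (SE), edgeR adjusted p = 0.00128), while in members it was at 177 ± 114 CPM in Stag2 KO and 140.0 ± 40.8 CPM in Stag2 wt (log2 fold change 0.24 ± 0.33 (SE), edgeR adjusted p = 0.879), and the difference was 3.03 ± 0.41 (adjusted p = 5.71e-04 by edgeR). The CD3 positive sums held more neutrophil granule RNA in 2 mice, at 646, 17720.3 and 28059 CPM in the Stag2 KO mice, against 1538, 2773 and 4401 CPM in the Stag2 wt mice for that list. The part of this in the differences was not tested.

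**Figure D5:**
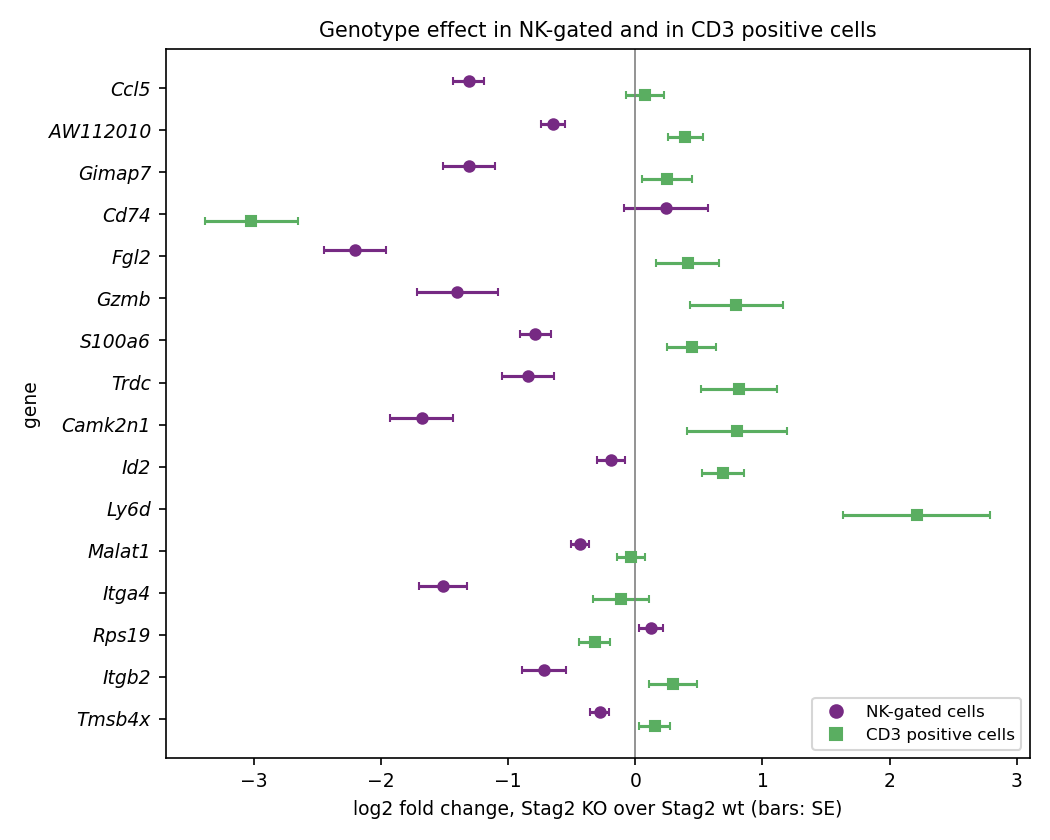
Log2 fold change of Stag2 KO over Stag2 wt with its SE for the 16 genes whose effects differed between members (circles) and CD3 positive cells (squares). Ly6d had too few counts in members and has no circle; for Ccl5, AW112010, Gimap7 and Fgl2 the circles lie below 0 and the squares at or above it.

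The Ly49 genes could be compared only in part, since Klra4 and Klra8 were at 1.84 and 1.36 CPM in CD3 positive cells. Klra7 was at 72.3 ± 16.8 CPM in Stag2 KO and 97.5 ± 13.2 CPM in Stag2 wt there (log2 fold change -0.58 ± 0.22 (SE), edgeR adjusted p = 0.624), and the difference of its effects was not past the test (-0.53 ± 0.23, adjusted p = 0.605 by edgeR). Cxcr6 and Ly6a rose in CD3 positive cells as well. Cxcr6 was at 332 ± 42.9 CPM in Stag2 KO and 152 ± 13.6 CPM in Stag2 wt there (log2 fold change 1.03 ± 0.17 (SE), edgeR adjusted p = 0.0111) and Ly6a at 307 ± 68.4 CPM in Stag2 KO and 111 ± 29.8 CPM in Stag2 wt (log2 fold change 1.37 ± 0.22 (SE), edgeR adjusted p = 0.00837), with SDs over 3 mice. The differences of their effects were 0.14 ± 0.27 and 0.25 ± 0.32 (adjusted p = 0.971 and 0.957 by edgeR). As this test found few of the simulated 2-fold differences, these misses do not show that the effects were the same.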

How the data were processed

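For each of 6 samples the authors deposited 1 table of raw UMI counts (cells by genes) with a cluster number per cell; libraries were 10x Chromium Single Cell 3' version 2, per the labels. The labels leave out the aligner, counter and genome build, not given in the sources used here. File symbols were matched without regard to case to GENCODE M21 (17438 of 18011), which gave coordinates; 9 listed genes were absent. A called homing gene is not reported here.

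Counts of members were summed per mouse; edgeR fitted quasi-likelihood models to the sums (TMM factors, filterByExpr, Benjamini-Hochberg at 0.05), leaving the gate genes out of the test. Interaction and late-against-early fits had the mouse as a block. Shares were compared by 2-sided exact permutation over 20 assignments. Counting error alone sets the 95% exact binomial intervals and the floor of 3 counts. A simulated-doublet score, at 0.8% per 1000 cells, marked 10, 5 and 4 Stag2 KO members and 3, 6 and 16 Stag2 wt members, which were kept except in 1 alternative. The edgeR fits were tested on simulated counts.

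The members, gene lists and tests were chosen with earlier results of these data known. Named genes passed 0.05, did not overlap and had 20 CPM or more (12 by size each way), or were list members that passed or were highest (up to 6 each), 8 each way for late against early, 6 for the interaction, 15 by level, and Stag2, Stag1, Ncr1, Klrb1c and Gzma. Prf1, Cd247, Il7r, Tbx21, Ifng, Ccl3, Cxcr3, S1pr1, Ly6d, Igkc, Igha and Jchain were added after their values were seen. So were the alternatives by deposited cluster, by an upper UMI limit and without Ccl5 and, for some results, thinning and leaving out a mouse. Alternatives were RLE factors, DESeq2, no filter, the title prefix, other gates, depths and cell subsets, and each mouse left out. Versions were R 4.3.3, edgeR 4.0.16, limma 3.58.1, DESeq2 1.42.0, Python 3.11.15, scikit-learn 1.9.0, scipy 1.17.1, numpy 2.4.6, matplotlib 3.10.9 and pandas 2.3.3; seed 1.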

Additional observations from a re-analysis of the deposited data

Results flagged for a closer look

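For 16 genes the log2 genotype effect in members differed from that in CD3 positive cells by edgeR's test of the difference itself, with the mouse as a block. The difference, members minus CD3 positive cells, was -1.38 for Ccl5, -1.04 for AW112010, -1.59 for Gimap7, 3.03 for Cd74, -2.62 for Fgl2 and -2.23 for Gzmb. These 6 have the smallest p and are described above. It was -1.24 for S100a6, -1.66 for Trdc, -2.50 for Camk2n1, -0.89 for Id2, -3.84 for Ly6d, -0.40 for Malat1, -1.48 for Itga4, 0.45 for Rps19, -1.01 for Itgb2 and -0.43 for Tmsb4x. The adjusted p of these 10 ran from 0.00236 to 0.0490.

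Ccl5, AW112010, Gimap7, Cd74 and Fgl2 kept this call in all 6 fits that left out a mouse. Gzmb did not without WT2, and the other 10 were each lost without at least 1 mouse. Ly6d had too few UMIs in members for a test of its own there, and its CD3 positive effect was 2.21 ± 0.58. The fits found 69 genes without KO1 and 61 without KO2, and 7 without KO3, WT1 or WT2 and 9 without WT3. The CD3 positive sums of KO2 and KO3 held 17720.3 and 28059 CPM of the neutrophil list, against 646 CPM in KO1 and 1538 to 4401 CPM in the Stag2 wt mice.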

How the results depend on the processing

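The count of 85 genes by genotype was 179 with no low-count filter, 44 with DESeq2, 33 in the XA-titled samples alone (1 Stag2 wt sample, assumed to vary like the others), and 27 with that prefix as a covariate. It was 48 in late-leaning members alone, 36 after thinning to 1500 UMIs, 27 in members with at least 1000 detected genes and 2 in members with no T cell receptor constant UMI, where 1153 genes had enough counts to be tested. Leaving out 1 mouse gave 37 to 107 genes, with 37 without WT2, 42 without KO1 and 54 without KO3; 29 of the 85 held in all 6 such fits, Ccl5 and Klra4 in all 20 alternatives, and Fgl2, Itga4 and Socs2 held in the 19 that had counts enough to test them. The other alternatives gave 73 to 106. The 16 genes that differed between members and CD3 positive cells were 101 with no filter and 8 with DESeq2, and 7 to 69 with a mouse left out. The 170 genes of late- against early-leaning members were 99 with DESeq2 and 88 to 182 with a mouse left out (98 without KO2, 88 without WT3); this fit without Ccl5 in the late list was not run, since KO2 then had 0 late-leaning members. The log2 fold change of Klra9 turned to 0.0185 in members with no T cell receptor constant UMI. The cell cycle difference of 172 CPM turned to -206 CPM after thinning and -183 CPM at 8000 UMIs or fewer. It was -38.7 CPM in the deposited cluster of most members, picked for each mouse, and 88.5 to 233 CPM with a mouse left out. The cause of these changes was not tested.

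The difference in NK share kept its direction in all settings, at 0.149 to 1.34 points (0.0469 to 1.53 with a mouse left out). The difference in late-leaning share kept its direction as well, at -5.18 to -25.7 points (-19.4 to -27.8 with a mouse left out). The -5.18 points were without Ccl5 in the late list, where the share was at most 8.76% in any mouse. In members with no T cell receptor constant UMI the difference was -5.20 points with overlapping genotypes. The ratio of members to CD3 positive cells kept its direction too, at 0.890 after thinning and 1.25 to 1.64 with a mouse left out. Over the named genes and their alternatives 952 kept their call status, 307 lost the call and 3 gained one, all of them Stag2. The 952 include fits of Stag1 and Stag2 with no call to keep, and Stag1 turned from 0.21 to -0.21 after thinning. DESeq2 fits that gave no adjusted p were counted among the 307. No paired analysis was possible because the replicate numbers follow accession order and tie no mice together. Depth limits genes at a few UMIs per mouse: 3 counts correspond to 3.31 to 8.26 CPM in members.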
